A study of Mus musculus with 25 samples.

Results

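Gluceribacter is a genus of the Lachnospiraceae in the taxonomy that came with this table of fecal bacteria. Its members were chosen by name: every ASV (amplicon sequence variant, a 16S sequence told apart from the others by as little as a single base) whose genus field reads Gluceribacter. There were 4 such ASVs of 1555, named ASV_14, ASV_17, ASV_26 and ASV_789, and all 4 carried the species name Gluceribacter canis. They held 13171 of 300831 counts, 4.38% of the table, which made Gluceribacter the genus with rank 6 of 110 by total count. The genus was singled out because its share was high in the OVX+PBS group, so its differences between that group and any other are described here without a test.

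The 25 libraries came from feces of C57BL/6 mice, 5 per group, and were made from full-length 16S rRNA gene amplicons read on a PacBio instrument. Sham was the only group without OVX, and the other 4 were OVX alone and OVX with GEX, PBS or FMT, written OVX+GEX, OVX+PBS and OVX+FMT. OVX usually stands for ovariectomy, FMT for fecal microbiota transplantation and PBS for phosphate-buffered saline; GEX is kept as the labels write it, from a series on a decoction of traditional medicine. The labels give no age, dose, time, cage, batch or transplant donor, and they list the animals as male, which cannot be squared with removal of ovaries. Nothing says whether mice of 1 group shared a cage, so a p-value measures the spread between these libraries. Library totals ran from 8498 to 22404 counts with a median of 10123, and 5 libraries (Sham 3 and 4, OVX+PBS 1, OVX+FMT 1 and 5) held 17367 or more while the other 20 held at most 11252. A library is named below by its group and its replicate number.

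Lachnospiraceae are strictly anaerobic clostridia of the gut that ferment carbohydrates, and many of them form short-chain fatty acids that the gut wall takes up. A share of 16S counts is relative: it moves when other bacteria grow or shrink, and it does not measure cells. A bacterial genome often carries several copies of the rRNA operon, and copies within 1 genome can differ by a few bases. Full-length reads resolved to single bases can list such copies, as well as different strains, as separate ASVs. The sequences of these ASVs were not used here.

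The genus was made up of 3 abundant ASVs and a rare one. ASV_14 held 6412 counts (48.7% of the genus) and was found in all 25 libraries. ASV_17 held 4532 (34.4%), also in all 25, and ASV_26 held 2211 (16.8%) in 23 libraries. ASV_789 held 16 counts in 3 libraries: 11 in Sham 2, 3 in OVX+GEX 1 and 2 in OVX+PBS 4. The first 3 passed the filter of at least 3 counts in at least 5 libraries, as did 379 of the 1555 ASVs, and ASV_789 did not.

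Across all libraries ASV_14 had nearly as many counts as ASV_17 and ASV_26 together. In Sham, replicates 1 to 5, ASV_14 had 301, 139, 526, 465 and 289 counts, and the other pair summed to 303, 178, 532, 523 and 281. In OVX the ASV_14 counts were 240, 170, 124, 114 and 80 against sums of 269, 151, 110, 111 and 88. In both groups the 2 quantities followed each other, whether the genus was scarce or abundant, least closely in Sham 2. In OVX+GEX, ASV_14 had 110, 245, 136, 220 and 85 counts against 99, 259, 139, 254 and 96. In OVX+PBS it had 913, 229, 274, 179 and 418 against 988, 215, 280, 177 and 456, so the match held at the highest counts too. In OVX+FMT it had 311, 240, 134, 344 and 126 counts against 305, 239, 165, 380 and 145.

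The ASV_14 share of the 3 ASVs averaged 48.9% ± 2.40 (SD, n = 25), with a lowest library at 43.8% and a highest at 53.0%. Its Wilson 95% interval included 50% in 24 of 25 libraries. The exception was Sham 2, at 43.8% (Wilson 95% interval 38.5% to 49.4%), which is also the library with most of the ASV_789 counts. With ASV_789 added to ASV_14, the share in that library was 45.7% (Wilson 95% interval 40.4% to 51.1%). The same addition moved OVX+GEX 1 from 52.6% to 53.3% and OVX+PBS 4 from 50.3% to 50.6%, further from 50%. No sequence was used to assign ASV_789 to ASV_14. The spread between libraries was no larger than counting error alone gives: the chi-square statistic over libraries was 19.7 on 24 degrees of freedom, 0.821 per degree. The pooled share of 48.7% (6412 of 13155 counts) lay a little under an even split. The intervals of single libraries are wide, so holding 50% does not show that the split is even. This balance was noticed in the data and is given as a description.

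**Figure D1:**
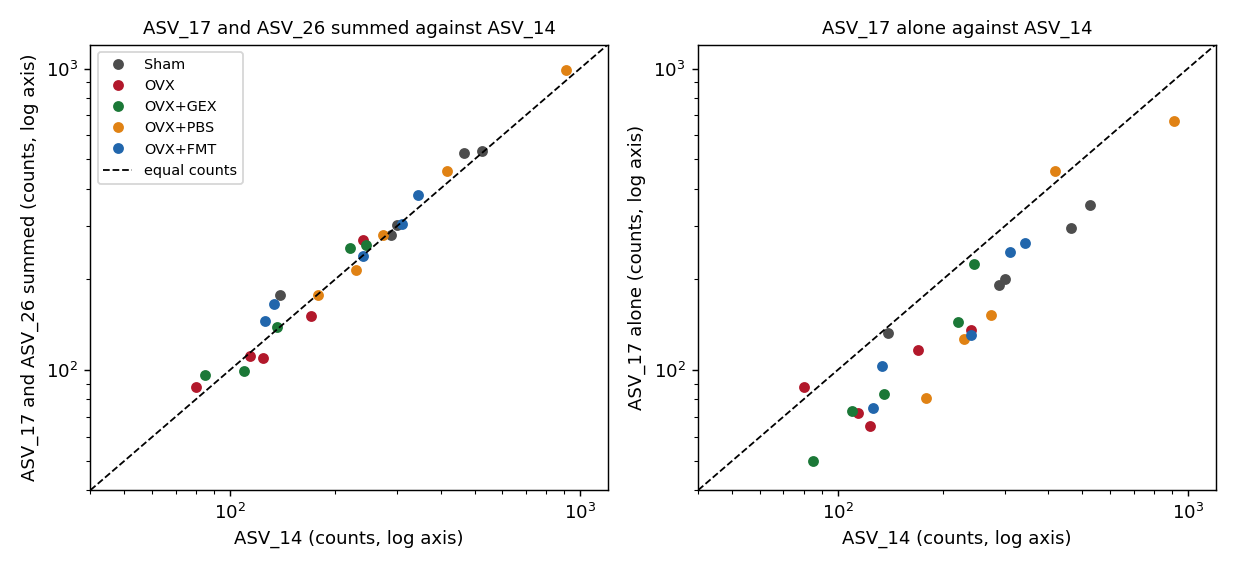
Counts of ASV_17 and ASV_26 summed (left) and of ASV_17 alone (right) against counts of ASV_14 in each of 25 libraries, both on log axes; points are libraries coloured by group and the dashed line marks equal counts. The summed counts lie along the line in all groups, while 23 of 25 points for ASV_17 alone lie below it.

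ASV_17 and ASV_26, in contrast, varied widely against each other between libraries. ASV_17 held 66.4% ± 14.3 of their joint counts (SD, n = 25), from 45.8% in OVX+PBS 4 to 100% in 2 libraries, and the chi-square statistic per degree of freedom was 22.6, or 11.0 over the 23 libraries in which ASV_26 was found. In replicates 1 to 5 the ASV_17 part was 66.0%, 74.7%, 66.4%, 56.4% and 68.0% in Sham and 50.6%, 77.5%, 59.1%, 64.9% and 100% in OVX. It was 73.7%, 86.9%, 59.7%, 56.7% and 52.1% in OVX+GEX, 68.0%, 59.1%, 54.3%, 45.8% and 100% in OVX+PBS, and 80.7%, 54.8%, 62.4%, 69.5% and 51.7% in OVX+FMT. All 5 groups overlapped, and low and high libraries occurred in each.

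ASV_26 was missing from OVX 5 and OVX+PBS 5. A count of 0 among 168 and 874 genus counts allows a share of up to 1.79% and 0.343% of the genus, counting error only, against 6.75% to 26.8% in the other 23 libraries. In those same libraries ASV_17 alone was near ASV_14: it had 88 counts beside 80 of ASV_14 in OVX 5 and 456 beside 418 in OVX+PBS 5. These were the only 2 libraries in which ASV_17 was above ASV_14. The libraries are the lowest of OVX and the highest of OVX+PBS in genus share; OVX+GEX 5 and OVX+FMT 5 had lower shares than OVX 5 and held ASV_26.

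**Figure D2:**
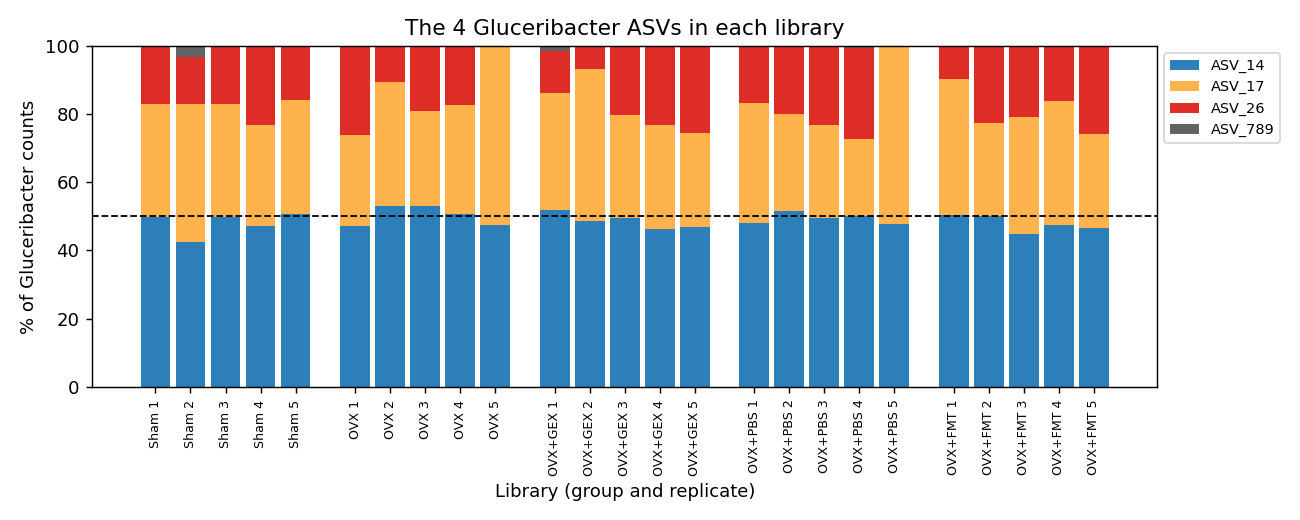
Stacked bars of the percent of Gluceribacter counts held by each of its 4 ASVs in each library; the dashed line marks 50%. ASV_14 stays between 42.4% and 53.0% in all libraries, and ASV_26 is at 0 in OVX 5 and OVX+PBS 5.

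The ratio of ASV_14 to ASV_17 alone was less even: ASV_14 held 47.6% to 68.8% of their joint counts, with a chi-square statistic of 4.68 per degree of freedom, so it varied by more than counting error. It was still steadier than for most genera of the table. For each of the 44 genera with 2 or more ASVs past the filter, the log2 ratio of the 2 leading ASVs was taken in every library, with 0.5 added to each count. Its SD over the 25 libraries was 0.32 for ASV_14 over ASV_17, which ranked 2 of 44, behind Ligilactobacillus (0.13), a lactic acid bacterium; the median over the genera was 2.62. For ASV_14 over ASV_17 and ASV_26 summed, a sum picked after seeing the counts, the SD was 0.14. Genera with few counts have noisier ratios, and the part of depth in this contrast was not tested.

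Within the genus no measure of makeup told the groups apart, and the expected number of ASVs could not have done so. These measures are relative to the genus total and do not use the level for which the genus was picked. ASV_14 held 47.9% ± 3.39 of the genus in Sham, 50.3% ± 2.81 in OVX, 48.7% ± 2.18 in OVX+GEX, 49.4% ± 1.54 in OVX+PBS and 47.9% ± 2.41 in OVX+FMT (SD, n = 5). The 4 comparisons of OVX with Sham, OVX+GEX with OVX, OVX+PBS with OVX and OVX+FMT with OVX+PBS had adjusted exact permutation p-values of 0.444, 0.444, 0.532 and 0.444. The Shannon index of the ASVs in the genus (natural log) was 1.04 ± 0.0467 in Sham, 0.943 ± 0.146 in OVX, 1.01 ± 0.0691 in OVX+GEX, 0.967 ± 0.155 in OVX+PBS and 1.02 ± 0.0503 in OVX+FMT, with an adjusted exact permutation p of 0.651 in all 4. The wide SDs of OVX and OVX+PBS come with the library in each that lacked ASV_26. The expected number of ASVs in 168 genus counts was 2.80 to 3.20 by group (adjusted exact permutation p = 1.0 in all 4). Libraries differed in it almost only where ASV_26 was missing or ASV_789 was found, so most values were tied. With such ties the exact test could not reach the threshold, and nothing is read from it. The grouping took R2 = 0.0475, 0.0217, 0.0155 and 0.00578 of the Bray-Curtis variation in ASV shares within the genus (adjusted exact permutation p = 0.929 in all 4). A p that misses the threshold does not show that the makeups were equal.

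The share of the whole genus varied widely within groups, and its mean was highest in OVX+PBS and lowest in OVX. Sham libraries 1 to 5 held 6.20%, 3.36%, 6.09%, 4.41% and 5.63% of their counts in Gluceribacter, a mean of 5.14% ± 1.22 (SD, n = 5). OVX libraries held 4.52%, 2.90%, 2.55%, 2.22% and 1.74%, a mean of 2.79% ± 1.06. The lowest Sham library was above 4 OVX libraries, and OVX 1 was the exception. OVX+GEX libraries held 1.99%, 5.05%, 3.10%, 5.58% and 1.68% (mean 3.48% ± 1.77). The group had 2 libraries at Sham levels and 3 at OVX levels. OVX+PBS libraries held 8.74%, 3.95%, 6.32%, 4.18% and 9.89% (mean 6.62% ± 2.66). Replicates 1, 3 and 5 exceeded every Sham library, and replicates 2 and 4 lay within the range of Sham and of OVX. OVX+FMT libraries held 2.75%, 4.54%, 2.97%, 7.63% and 1.37% (mean 3.85% ± 2.39). Replicate 4 stood above all Sham libraries and replicate 5 was the lowest of all 25.

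From high to low the group means ran OVX+PBS, Sham, OVX+FMT, OVX+GEX and OVX. Each step between neighbours (1.48, 1.29, 0.374 and 0.693 percentage points) was smaller than the larger SD of the 2 groups it joins. Gluceribacter ranked between 2 (OVX+PBS 5) and 13 (OVX+GEX 1) among the genera of a library. Counting error was small beside these differences: the widest Wilson 95% interval, that of OVX+PBS 5, ran from 9.29% to 10.5%. The deep libraries were not all high or all low, with 8.74% in OVX+PBS 1 but 2.75% and 1.37% in OVX+FMT 1 and 5.

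The OVX+PBS libraries also carried the most Duncaniella, an abundant anaerobe of the Muribaculaceae: 36.2% ± 16.99 of counts against 13.2% ± 5.91 in Sham, 23.3% ± 13.1 in OVX, 16.5% ± 15.6 in OVX+GEX and 22.6% ± 10.6 in OVX+FMT (SD, n = 5). With Duncaniella left out of the total, Gluceribacter held 11.8% ± 8.31 in OVX+PBS, 5.99% ± 1.72 in Sham, 3.93% ± 2.46 in OVX, 4.01% ± 1.57 in OVX+GEX and 4.74% ± 2.36 in OVX+FMT. The part of Duncaniella in the level of Gluceribacter was not tested. OVX+PBS 5 stood out here: Duncaniella took 61.9% of its counts, and Gluceribacter 25.97% of the rest and 31.98% of the Firmicutes counts.

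In percent of all counts no pair of groups was free of overlap for Gluceribacter. Shares did not overlap for 1.23% of 81 genera in OVX against Sham, OVX+GEX against OVX, OVX+PBS against OVX and OVX+PBS against OVX+GEX, 4.94% in OVX+GEX against Sham, 6.17% in OVX+FMT against Sham, 8.64% in OVX+PBS against Sham and 0% in the other 3 pairs.

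On a scale that sets each genus against the average genus of its library (the centred log-ratio, log2, 0.5 added to each count), OVX+PBS separated further. Its libraries read 6.56, 5.66, 5.94, 5.93 and 7.71, against 5.29, 4.30, 5.56, 4.69 and 5.14 in Sham. OVX read 5.48, 4.51, 4.57, 4.22 and 4.19. Every OVX+PBS library was above every library of Sham, OVX and OVX+FMT on this scale, while in percent of all counts OVX+PBS overlapped each group. OVX+GEX read 3.96, 5.56, 5.02, 5.83 and 4.33 and OVX+FMT 5.23, 5.33, 4.62, 5.62 and 4.69, so OVX+GEX 4 lay above the lowest OVX+PBS library. Groups did not overlap on this scale for 8.64% of 81 genera between OVX+PBS and Sham, 3.7% between OVX+PBS and OVX and 1.23% between OVX+FMT and OVX+PBS. Since the genus was picked for OVX+PBS, nothing is read from these separations.

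**Figure D3:**
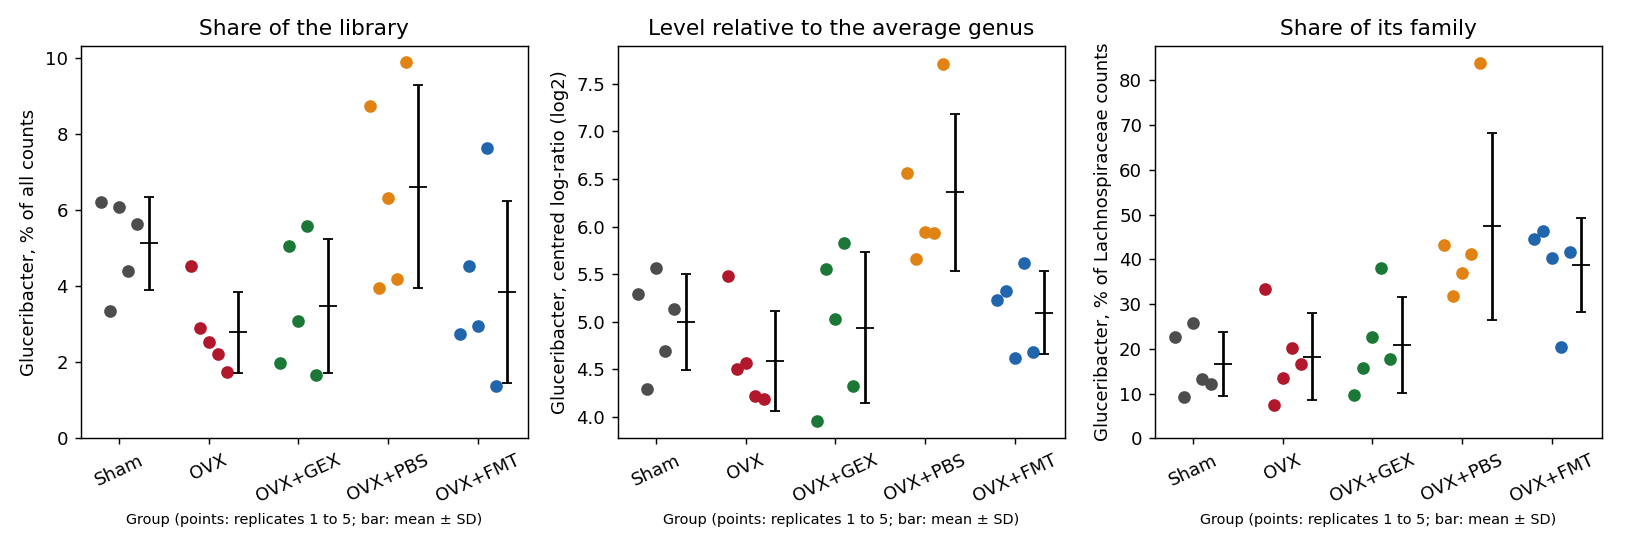
Gluceribacter in each library as percent of all counts (left), as centred log-ratio in log2 units (middle) and as percent of Lachnospiraceae counts (right); points are replicates 1 to 5 in order, black bars the mean ± SD of 5 libraries. OVX+PBS has the highest mean on all 3 scales, and OVX+FMT sits near it only on the right, at 38.7% against 47.4%.

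Fitted with edgeR on counts summed per genus (TMM scaling, 81 genera, 25 libraries in 1 fit), the log2 fold change of Gluceribacter was 1.60 (SE 0.50) for OVX+PBS over OVX. It was 1.17 (SE 0.50) over Sham and 1.04 (SE 0.50) over OVX+GEX, and -1.11 (SE 0.50) for OVX+FMT over OVX+PBS. The typical genus had an estimate of the opposite sign in these fits: the median log2 fold change over 81 genera was -0.47, -0.48, -0.68 and 0.62. Relative to that median Gluceribacter was at 2.07, 1.65, 1.72 and -1.73. With plain library totals in place of TMM the fold change over Sham was 0.36, with a median over genera of -1.08, and relative to the median Gluceribacter was at 1.45. Without OVX+PBS 5 the TMM value over Sham was 0.68. Its size against Sham thus depends on the scaling and on that library. A change of scaling moves all genera together, so the distance from the median could change little and nothing is read from it.

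For the 6 pairs without OVX+PBS the level was tested, and no difference passed adjustment. OVX against Sham had the largest difference in share, -2.35 percentage points (exact permutation p = 0.0238, adjusted p = 0.143 over 6 pairs). OVX+GEX differed from OVX by 0.693 points, with an adjusted exact permutation p of 0.552, and OVX+FMT from OVX by 1.07 points, with the same adjusted p. OVX+GEX and OVX+FMT differed from Sham by -1.66 and -1.29 points (adjusted exact permutation p = 0.357 and 0.552), and OVX+FMT from OVX+GEX by 0.374 points (adjusted exact permutation p = 0.817). With 5 libraries a group the smallest exact p is 0.00794. Over 16 alternatives the adjusted exact p of OVX against Sham ran from 0.0952 to 0.786. A single library weighs on OVX+FMT: without OVX+FMT 4 the difference from OVX was 0.122 points and that from OVX+GEX -0.571, both with no call.

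In the edgeR fit the log2 fold change of OVX over Sham was -0.43 (SE 0.49, adjusted p = 0.872). OVX+GEX over OVX was 0.55 (SE 0.49, adjusted p = 0.874) and OVX+FMT over OVX 0.49 (SE 0.49, adjusted p = 0.826). Single libraries moved these values by over 1.5 times, with no call: OVX over Sham was -0.89 without OVX 1, and OVX+GEX and OVX+FMT over OVX were then both 0.90. Without OVX 5 the 3 values were -0.26, 0.27 and 0.27. OVX+GEX over OVX was 0.31 and 0.27 without OVX+GEX 2 or 4, and OVX+FMT over OVX 0.29 and 0.24 without OVX+FMT 2 or 4. OVX+GEX over Sham was 0.12, OVX+FMT over Sham 0.06 and OVX+FMT over OVX+GEX -0.06, each with an SE of 0.49 and edgeR adjusted p-values of 0.975, 0.944 and 0.972. The last 3 have no settled sign: with plain totals they were -0.56, -0.42 and 0.15. With plain totals the OVX over Sham value was -0.88, while the median over genera moved from 0.15 to -0.22, so relative to the median it was -0.58 and -0.67. The share of genera that edgeR called was 0% in the pairs OVX against Sham, OVX+GEX against OVX, OVX+FMT against OVX and OVX+FMT against OVX+GEX. It was 4.94% for OVX+GEX against Sham and 1.23% for OVX+FMT against Sham. At an unadjusted edgeR p under 0.05 stood 9, 5, 7 and 11 genera (11.1%, 6.17%, 8.64% and 13.6%) in the 4 pairs with no call, and 8 and 14 (9.88% and 17.3%) in the 2 pairs with calls; Gluceribacter was in none of them.

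**Figure D4:**
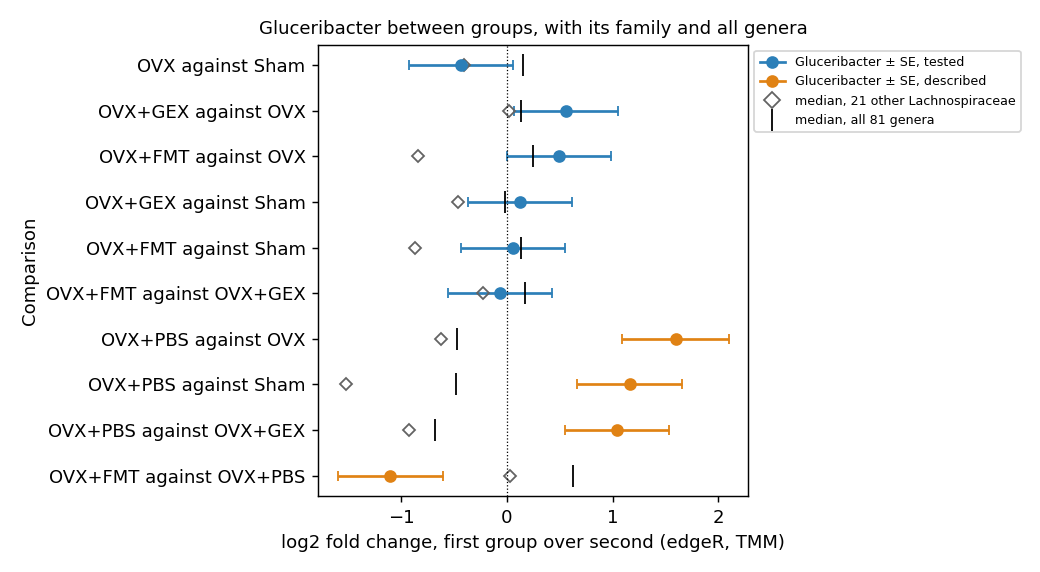
Log2 fold change of Gluceribacter (points, bars ± SE, edgeR with TMM; blue tested, orange described only) in 10 pairs of groups, with the median of the 21 other Lachnospiraceae genera tested (diamonds) and of all 81 genera (vertical ticks). Only the 4 pairs with OVX+PBS reach a size above 1, and there the diamonds and ticks lie on the other side of 0 or near it.

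The estimates of the single ASVs had the sign of the genus in OVX+PBS over OVX and in OVX over Sham, but not in every pair. Over OVX, OVX+PBS had log2 fold changes of 1.20 (SE 0.65) for ASV_14, 1.37 (SE 0.73) for ASV_17 and 1.01 (SE 1.10) for ASV_26, all described only. OVX over Sham was -0.72 (SE 0.64) for ASV_14, -0.79 (SE 0.73) for ASV_17 and -0.77 (SE 1.09) for ASV_26, with edgeR adjusted p-values of 0.844, 0.844 and 0.963. The 3 estimates were thus alike within their errors in both pairs. In the 6 tested pairs edgeR called 0 of the 3 ASVs, with 0% of 379 ASVs called in 5 of the pairs and 1.32% in OVX+FMT against Sham; DESeq2 and limma also called 0 of the 3, and 0 of the 3 had an unadjusted edgeR p under 0.05 in any of these pairs. All 3 ASVs had the opposite sign to the genus in OVX+GEX over Sham, OVX+FMT over Sham and OVX+FMT over OVX+GEX. For ASV_14, ASV_17 and ASV_26, OVX+GEX over Sham was -0.57, -0.57 and -0.44, where the genus fit gave 0.12. OVX+FMT over Sham was -0.26, -0.22 and -0.22, against 0.06 for the genus. OVX+FMT over OVX+GEX was 0.31, 0.35 and 0.23, against -0.06. OVX+PBS over Sham, described only, was 0.47, 0.57 and 0.24, against 1.17. The 2 tables were scaled separately.

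Set against its own family, Gluceribacter held a larger part of the Lachnospiraceae counts in most OVX+PBS and OVX+FMT libraries than in most others. It made up 43.2%, 31.9%, 36.9%, 41.1% and 83.9% of the Lachnospiraceae counts in OVX+PBS libraries 1 to 5, and 44.6%, 46.5%, 40.2%, 20.4% and 41.7% in OVX+FMT. In Sham it made up 22.6%, 9.20%, 25.8%, 13.3% and 12.2%. In OVX it made up 33.5%, 7.50%, 13.5%, 20.1% and 16.5%, and in OVX+GEX 9.78%, 15.7%, 22.7%, 38.0% and 17.9%. Every OVX+PBS library was above every Sham library. Of the 22 Lachnospiraceae genera past the filter, 1 (4.55%) did not overlap between these groups, and Gluceribacter is that 1. Since the genus was picked for OVX+PBS, nothing is read from this separation. In OVX+FMT 4 of 5 libraries were above every library of Sham, OVX and OVX+GEX.

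The rest of the family was scarcest in OVX+PBS 5 and in 4 OVX+FMT libraries. Lachnospiraceae other than Gluceribacter held 28.3% ± 9.22 of all counts in Sham, 15.7% ± 11.6 in OVX, 14.6% ± 8.13 in OVX+GEX, 7.73% ± 3.91 in OVX+PBS and 8.94% ± 11.7 in OVX+FMT (SD, n = 5). OVX+FMT 4 was the odd library of its group, with 29.7% of such counts against 1.92% to 5.23% in the other 4. The OVX mean likewise rests on OVX 2, at 35.8%, and the OVX median was 8.99%. OVX+PBS 1 and 3, at 11.5% and 10.8%, lay above 3 of the 5 OVX libraries and above OVX+GEX 3 to 5. OVX+PBS 5, where Gluceribacter was 83.9% of the family, had 1.90%.

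The share of the family was compared over the 6 pairs without OVX+PBS, a measure added after the values were seen. OVX+FMT averaged 38.7% ± 10.5 of family counts, against 18.2% ± 9.70 in OVX, 16.6% ± 7.17 in Sham and 20.8% ± 10.7 in OVX+GEX (SD, n = 5). The differences of 20.4, 22.1 and 17.9 points had exact permutation p-values of 0.0159, 0.0238 and 0.0317 and an adjusted p of 0.0635 for all 3, so none passed. Without OVX+FMT 4 they were 25.004, 26.6 and 22.4 points, each with an adjusted exact permutation p of 0.0317, and without OVX+GEX 4 the last was 22.2 points with an adjusted exact permutation p of 0.0476. OVX and OVX+GEX differed from Sham by 1.63 and 4.22 points and from each other by 2.59 (adjusted exact permutation p = 0.770, 0.750 and 0.770). Within the family the mean in OVX was thus above that in Sham, where in percent of all counts it was below.

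The table holds 22 other Lachnospiraceae genera; 21 of them passed the filter, and edgeR called 0 of the 21 in any of the 10 pairs. Background shares of called genera in the pairs with OVX+PBS were 0%, except for 1.23% in OVX+PBS against Sham. At an unadjusted edgeR p under 0.05 stood 0 to 4 of the 21 by pair (0% to 19.0%), beside 6.17% to 21% of all 81 genera. In the pairs with OVX+PBS it was 2 of 21 against OVX (13.6% of all genera), 3 against Sham (21%), 1 against OVX+GEX (14.8%) and 2 against OVX+FMT (14.8%). For OVX+PBS over OVX 6 of the 21 had a higher and 15 a lower estimate, with a median log2 fold change of -0.63, and none had a higher estimate than Gluceribacter. For OVX+PBS over Sham it was 4 and 17, with a median of -1.52, and 1 genus exceeded Gluceribacter. For OVX+FMT over OVX it was 5 and 16, with a median of -0.84 beside 0.24 over all genera. For OVX+FMT over Sham it was 3 and 18, with a median of -0.87 beside 0.13. Family genera with a higher estimate than Gluceribacter numbered 4 for OVX+FMT over OVX, 3 over Sham and 8 over OVX+GEX. Its rank among all 81 genera was 30, 45 and 47 there. Among all 81 genera Gluceribacter ranked 5 by log2 fold change for OVX+PBS over OVX, 13 over Sham and 8 over OVX+GEX. For OVX+PBS over OVX+GEX, 2 family genera exceeded it. The genus was picked for OVX+PBS, so nothing is read from its place in the pairs with that group.

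The count of 0 depended on the setting, most of all on OVX+FMT 4. Without that library edgeR called 4 of the 21 genera lower in OVX+FMT than in Sham, 3 lower than in OVX, 3 lower than in OVX+GEX and 1 lower than in OVX+PBS. Of all 77 genera tested then, 5.19%, 3.9%, 3.9% and 1.3% were called lower. The 4 were Kineothrix and Butyribacter, both known as butyrate producers, Lachnoclostridium, and Marvinbryantia, and all were named after their values were seen. Within OVX+FMT, Butyribacter and Marvinbryantia were found in OVX+FMT 4 alone (group means 0.270% ± 0.604 and 0.0422% ± 0.0943, SD). Without that library the group held no counts of either. Their log2 fold changes against Sham, -8.27 and -9.40, are thus set against a floor of zeros. Without OVX+FMT 4, Kineothrix stood at -2.94 on the log2 scale against Sham, with an SE of 0.68 and an edgeR adjusted p of 0.00429. Marvinbryantia was also called lower by limma for OVX+FMT against OVX and against Sham (2.47% and 1.23% of all genera called lower), and by DESeq2 for OVX+FMT and OVX+PBS against Sham (1.23% and 3.7%), with all libraries in. A fit of OVX+PBS and Sham alone, run after seeing the data, called Butyribacter and Marvinbryantia lower in OVX+PBS, with 5% of 80 genera called lower. Gluceribacter was called in none of these settings in the 6 tested pairs.

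The genera whose pattern over the 25 libraries was most like that of Gluceribacter were found by Spearman's rho of centred log-ratios, among 80 genera. Acetivibrio, a fibre-degrading clostridium of the Oscillospiraceae, came first with a rho of 0.576, followed by Butyribacter (0.455), Fournierella (0.415), Anaerocolumna (0.394) and Ihubacter (0.365). The least like were Blautia (-0.465), Romboutsia (-0.393) and Marvinbryantia (-0.328). The median rho was 0.0346 and 1 genus exceeded 0.5, so no genus tracked Gluceribacter closely. All values share the same libraries, totals and centring, and the rhos are a description.

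Acetivibrio held 8.11% ± 1.96 in Sham, 3.97% ± 1.87 in OVX, 6.61% ± 6.38 in OVX+GEX, 6.25% ± 3.92 in OVX+PBS and 5.36% ± 2.27 in OVX+FMT (SD, n = 5). Like Gluceribacter it had its lowest mean in OVX, but its highest was in Sham. With each group's mean removed first, its rho was 0.36. Blautia, an acetate-forming Lachnospiraceae genus, held 1.62% ± 0.954 in Sham, 1.61% ± 0.883 in OVX and 0.936% ± 0.435 in OVX+GEX. It held 0.432% ± 0.405 in OVX+PBS, the group in which Gluceribacter was highest, and 1.11% ± 0.738 in OVX+FMT. The rho of Blautia within groups was -0.257. Kineothrix and Lachnoclostridium also had their lowest mean in OVX+PBS, with rhos over all libraries of 0.0477 and -0.149. Fournierella was found in 7 libraries only and Butyribacter and Anaerocolumna in 11 each, at mean shares of 0.0194%, 0.153% and 0.0271%, so their rhos rest largely on zeros. The order changed once group means were removed: Butyribacter (0.563) then stood above Acetivibrio, and Romboutsia (-0.604) and Ruminococcus (-0.584, named after its value was seen) were lowest. Fournierella, Anaerocolumna and Ihubacter were then at 0.158, 0.0292 and 0.113, and Marvinbryantia at -0.212.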

How the data were processed

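The authors deposited 1 table of read counts per ASV with a taxonomy of 7 ranks, converted from a BIOM file per the file headers. The submitters' processing notes name Subread without a role. The denoiser, primers and taxonomy database are not stated there or in the labels. Among the counts stood 0 values of 1 and 464 of 2. Columns were matched to samples by name; 5 columns spelled GES were taken as GEX, and 0 were unmapped. 1 ASV with no genus (13 counts, 0.00432%) stayed out of the fits.

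Counts summed per genus, and counts per ASV, were tested with edgeR 4.0.16 in R 4.3.3 (quasi-likelihood F test, TMM, all 25 libraries, at least 3 counts in at least 5 libraries, Benjamini-Hochberg within a comparison, threshold 0.05). SEs came from the F statistic. Shares and measures within the genus were compared by exact two-sided permutation over all 252 ways to divide 10 libraries into 5 and 5, adjusted over 6 pairs or 4 comparisons. Wilson intervals and the floor of 3 counts cover counting error only. No libraries of the same group were duplicates (smallest Bray-Curtis distance within a group 0.300), and this value does not cover libraries of different groups. Alternatives used TMMwsp, DESeq2 1.42.0, limma 3.58.1 on centred log-ratios, other filters and denominators, and left-out libraries; scripts were tested on simulated data. The genus, lists and rules were chosen with earlier results of these data known. Named were the genus, its ASVs past the filter, called family genera, and the 5 most and 3 least similar genera.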

Additional observations from a re-analysis of the deposited data

Results flagged for a closer look

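The lowest Sham library for ASV_26 lay far from the others of its group. Sham 2 held 0.461% of its counts in ASV_26, while the other 4 Sham libraries held 0.888% to 1.06%; the gap was 0.716 of the whole range, against a critical value of 0.71 for 5 libraries. It was the 1 library so marked among 35 groups of values looked at (the genus and its 3 main ASVs, in percent of all counts and of the genus), and chance marks about 1 in 20. Sham 2 also held the lowest share of Gluceribacter in its group, 3.36%, and 11 of the 16 counts of ASV_789.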

How the results depend on the processing

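Neither Gluceribacter nor any of its ASVs was called in a tested pair under any alternative, except that the share of Lachnospiraceae counts passed where OVX+FMT 4 or OVX+GEX 4 was left out as well (adjusted exact permutation p = 0.0317 and 0.0476). Of the settings other than left-out libraries, 307 values for the main comparisons kept their direction and side of the threshold, 22 changed sign and 7 moved; for single ASVs these were 173, 7 and 0. The causes were not tested.

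The sign changes of log2 fold changes fell on small estimates; the share of Lachnospiraceae counts also turned the largest share difference. The log2 fold change of Gluceribacter in OVX+GEX over Sham was -0.019 with TMMwsp, -0.56 with plain totals, -0.0569 with limma, -0.22 with no filter and -0.14 with only the 2 groups fitted. In OVX+FMT over Sham it was -0.093 with DESeq2's size factors and with its Wald test, -0.42 with plain totals, -0.33 with no filter, -0.14 with a minimum of 10 counts and -0.012 with the 2 groups alone. In OVX+FMT over OVX+GEX it was 0.16 with TMMwsp, 0.15 with plain totals, 0.16 with limma and 0.22 in libraries of at most 12000 counts. OVX+PBS over Sham moved to 0.36 with plain totals. For OVX+FMT over Sham limma gave 0.073, 0.026 and 0.15 for ASV_14, ASV_17 and ASV_26, and ASV_26 was at 0.29 in libraries of at most 12000 counts. For OVX+FMT over OVX+GEX, ASV_14 and ASV_17 were at -0.0596 and -0.0856 with no filter, and ASV_17 at -0.0113 with the minimum of 10. As a share of Lachnospiraceae counts, OVX, OVX+GEX and OVX+FMT exceeded Sham by 1.63, 4.22 and 22.1 points; on centred log-ratios OVX+FMT exceeded Sham by 0.101. Within the genus, OVX+FMT minus OVX+PBS was 0.112 points for the 3 leading ASVs, and, without the libraries lacking ASV_26, -0.180 expected ASVs and -0.0157 in Shannon index. Of the other family genera 1 was called by limma in OVX+FMT against OVX, and 1 each by TMMwsp, DESeq2 and limma in OVX+FMT against Sham. In OVX+PBS against Sham 1 was called by DESeq2 and 2 with the 2 groups alone. The share of all genera called lower was not counted for TMMwsp, so nothing is read from that call.

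Leaving out each library in turn, Gluceribacter ranged from -0.89 to -0.26 (OVX over Sham), 0.27 to 0.90 (OVX+GEX over OVX), 0.24 to 0.90 (OVX+FMT over OVX), -0.17 to 0.32 (OVX+GEX over Sham), -0.21 to 0.16 (OVX+FMT over Sham) and -0.33 to 0.22 (OVX+FMT over OVX+GEX), and, described only, from 1.21 to 1.95 for OVX+PBS over OVX, 0.68 to 1.33 over Sham and 0.74 to 1.33 over OVX+GEX, and -1.38 to -0.76 for OVX+FMT over OVX+PBS. In OVX+GEX over OVX, ASV_14 ranged from -0.23 to 0.53, ASV_17 from -0.12 to 0.58 and ASV_26 from -0.34 to 1.08. In OVX+FMT over OVX+GEX they ranged from -0.18 to 0.70, -0.29 to 0.69 and -0.0080 to 0.89, and ASV_17 in OVX+FMT over Sham from -0.82 to 0.0022. The share difference of OVX+FMT and OVX+GEX ran from -0.571 to 0.994 points. For OVX+PBS minus OVX, expected ASVs ran from -0.0562 to 0.380 and Shannon from -0.0382 to 0.0933; for OVX+FMT minus OVX+PBS from -0.180 to 0.25 and from -0.0157 to 0.0774, with R2 from -0.0042 to 0.121. Called family genera ran from 0 to 3 (OVX+FMT against OVX and against OVX+GEX), 0 to 4 (against Sham) and 0 to 1 (against OVX+PBS). Against Sham 5 of the 25 fits had such a call. The share of all genera called lower was counted only for the fit without OVX+FMT 4, so nothing is read from the others.

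The replicate numbers were not taken as pairing, since in none of the 10 pairs of groups were all 5 same-numbered correlations over 0.1. Over 50 pairs of libraries they ran from -0.286 to 0.336 (median 0.0611, 18 over 0.1); in 3 pairs of groups, all with OVX+GEX, all 5 were above 0. The own number was the best match in 31 of 100 cases, where 1 in 5 gives 20. With the number as a replicate block, Gluceribacter was at -0.44 in OVX over Sham, 0.51 and 0.45 in OVX+GEX and OVX+FMT over OVX, 0.08 and 0.01 over Sham, -0.06 in OVX+FMT over OVX+GEX, and 1.56 in OVX+PBS over OVX, and no call changed. Every library held at least 168 genus counts, and counting error was small beside the spread between libraries of a group.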
